A study of Mus musculus with 54 samples.

Results

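Cell cycle and proliferation genes were followed along the small intestine of lactating and virgin mice. The set holds 36 genes, listed by name, of the 25229 gene symbols counted, and it covers DNA replication, nucleotide supply, cyclins and their kinases, the spindle checkpoint and the proteins of mitotic chromosomes. The genes were chosen to ask whether proliferation in the intestinal crypts is higher on day 7 of lactation. Tissue of the duodenum, jejunum and ileum was studied by poly(A) RNA sequencing with a directional kit. Females at lactation day 7, age-matched virgin females and virgin males gave 6 libraries for each section, in 9 groups. All were fed RM3 diet while breeding or RM1 diet for maintenance and experiment. Strain, and whether each library came from its own animal, are not given in the sources used here, so p-values measure the spread between libraries, which may in part be technical.

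The lining of the small intestine is replaced continuously by division in the crypts, where stem cells at the base give rise to rapidly cycling transit-amplifying cells whose daughters move up onto the villi and stop dividing. A dividing cell first builds G1 cyclins, then loads the MCM helicase onto replication origins, copies its DNA with the sliding clamp PCNA, and afterwards builds mitotic cyclins and kinases. Most of these transcripts are made in a particular phase of the cycle and are scarce in resting cells, so their level in whole tissue is commonly read as a measure of cycling cells. In bulk tissue, fewer cycling cells and less of these RNAs per cell cannot be told apart.

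Of the 54 libraries, 52 were used. Library 3 of the duodenum of lactating females, by its label, held 187950 CPM (read counts scaled to a common library size) of Alb, the serum albumin of liver, whereas no other library exceeded 194 CPM. It had 0.22 CPM of Sis and 0.0734 CPM of Lct, both enzymes of the villus surface. The library labelled lactating female jejunum 3 had 17.7 CPM of the duodenal regulator Pdx1, against 0.0505 to 0.272 CPM in the other lactating jejunum libraries and 27.7 to 85.9 CPM in lactating duodenum. Both were left out. Scaled with all 54 libraries, the 36 genes summed to 514 CPM in the first, below all other libraries, and to 1650 CPM in the second, above the 902 to 1429 CPM of the other lactating jejunum libraries. The 52 libraries held 18479722 to 27604041 gene reads and 17019 to 17894 genes with reads. The lowest count of any of the 36 genes was 37 reads, for Ccne1, and all 36 passed the filter on low counts in every comparison. Levels below are CPM scaled over these 52 libraries by the trimmed mean of M values.

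The 36 genes took a small part of the reads, from 0.0675% of gene reads in a lactating duodenum library to 0.222% in a virgin male ileum library. Levels were divided by the merged exon length of all GENCODE transcripts of the gene, which can exceed that of any single transcript. On this scale Pcna and the D-type cyclins stood highest in virgin female ileum. There Pcna had 27.1 CPM per kilobase of exon, Ccnd1 27.0 and Ccnd2 22.9, whereas the licensing factor Cdc6 had 1.28, the kinetochore protein gene Cenpf 1.35 and the helicase cofactor gene Gins2 1.38. The libraries of a group differed most in the lactating duodenum, where the coefficient of variation of the 36 genes had a median of 44.4%, against 18.6% in virgin female duodenum. In the lactating ileum it was 10.7%, against 16.1% in virgin female ileum.

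Promoter letters, which the choice of genes did not use, were compared with those of all genes. RefSeq promoters on GRCm38.p6 were matched for 29 of the 36 genes, and the 250 bases before the start were searched on both strands for CCAAT, for TTTGAA (the cell cycle genes homology region, a repressor element of mitotic genes) and for the E2F forms TTTCCCGC and TTTGGCGC. CCAAT was found in 24 of 29 genes (82.8%), against 37.5% of the 27025 genes in the table. TTTGAA was found in 9 of 29 (31.0%), against 18.3% of all genes, and an E2F form in 5 of 29 (17.2%), against 1.51%. The E2F forms were in 4 of the 8 matched replication genes (Mcm5, Mcm6, Mcm7 and Cdc6) and in Cdk2. A match is a description of letters, not a bound site. The 120 bases before a RefSeq start are shown for 3 helicase subunits and 3 mitotic genes that were higher in ileum than in jejunum, 5′ to 3′ on the gene's strand, with matches in capitals. The start is the one in the RefSeq table: no GENCODE transcript holds the first bases after it for Mcm5 or Ccnb2, and for Mcm7 it is 1 of 2 starts in the table. By GENCODE positions, the whole Mcm7 window, most of the Ccnb1 window and a few bases of the Cdc20 window lie inside the gene. Every window shown holds CCAAT or its reverse complement ATTGG more than once, and that of Cdc20 also holds TTTGAA.
Mcm5, chr8:75109389-75109508, plus strand: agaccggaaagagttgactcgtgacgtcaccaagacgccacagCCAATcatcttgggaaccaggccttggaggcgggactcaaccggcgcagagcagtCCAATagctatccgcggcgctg
Mcm3, chr1:20820313-20820432, minus strand: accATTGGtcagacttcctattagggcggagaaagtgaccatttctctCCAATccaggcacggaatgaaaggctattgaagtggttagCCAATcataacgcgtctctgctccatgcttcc
Mcm7, chr5:138171884-138172003, minus strand: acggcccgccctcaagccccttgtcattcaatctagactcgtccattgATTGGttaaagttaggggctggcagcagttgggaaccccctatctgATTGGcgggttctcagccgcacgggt
Cdc20, chr4:118437344-118437463, minus strand: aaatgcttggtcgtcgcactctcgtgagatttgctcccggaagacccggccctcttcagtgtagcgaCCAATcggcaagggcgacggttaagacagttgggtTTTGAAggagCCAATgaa
Ccnb1, chr13:100786487-100786606, minus strand: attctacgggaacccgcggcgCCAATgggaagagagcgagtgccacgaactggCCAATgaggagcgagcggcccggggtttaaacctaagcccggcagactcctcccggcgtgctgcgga
Ccnb2, chr9:70421555-70421674, minus strand: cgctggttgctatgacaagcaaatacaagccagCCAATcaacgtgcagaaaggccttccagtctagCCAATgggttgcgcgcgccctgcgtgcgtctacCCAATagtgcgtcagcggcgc

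Whether proliferation genes were higher in lactation was tested in each section with edgeR's quasi-likelihood F test, with p-values adjusted over all genes tested by the Benjamini-Hochberg method and a call at an adjusted p under 0.05. No member passed in any section. The estimates leaned up in jejunum and ileum and down in duodenum. By the same test, an unadjusted p under 0.05 was reached by 1 member in duodenum, 3 in jejunum and 2 in ileum. In none of the sections did the lactating and virgin female libraries of any of the 36 genes separate without overlap, against 0.721% of all genes that did so in duodenum, 1.93% in jejunum and 2.38% in ileum. Summed over the 36 genes, the level in lactating females was 1106 ± 433 CPM in duodenum (SD, n = 5), 1167 ± 211 CPM in jejunum (n = 5) and 1595 ± 146 CPM in ileum (n = 6). In virgin females it was 1240 ± 210 CPM in duodenum, 1045 ± 198 CPM in jejunum and 1431 ± 167 CPM in ileum (n = 6 each).

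**Figure D1:**
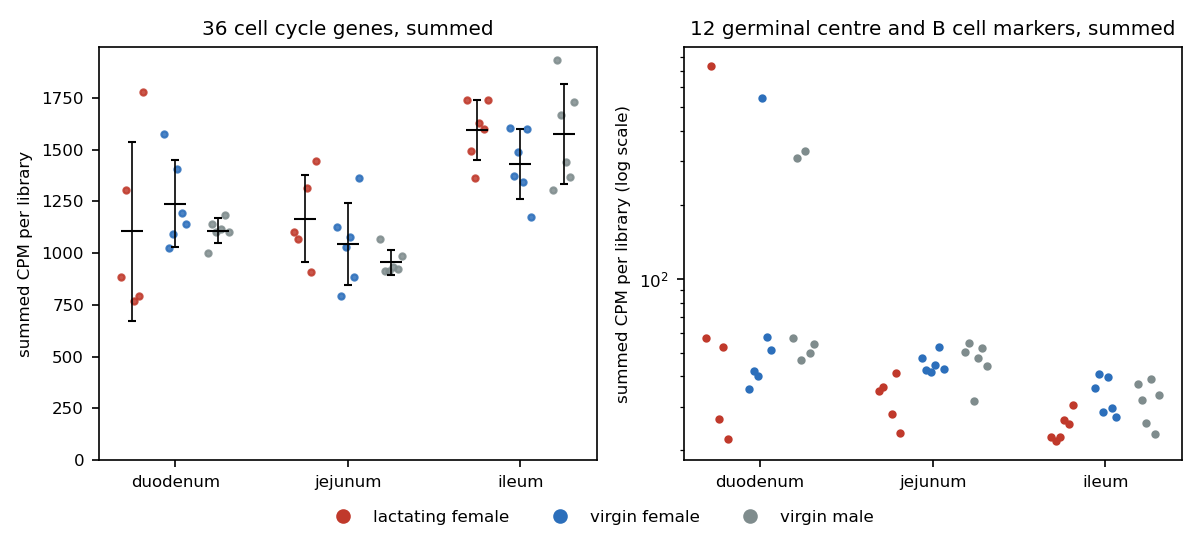
Left, the summed level of the 36 genes in CPM for every library by section and group; the horizontal mark is the mean and the bar 1 SD. Right, the summed level of 12 germinal centre and B cell markers on a log axis; 4 duodenum libraries stand between 311 and 735 CPM and every other library at or below 57.7 CPM. In the left plot the ileum libraries of each group average above its jejunum libraries, and 1 lactating duodenum library stands at 1777 CPM.

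In the jejunum, 0 of 36 genes were called, against 1.31% of 14783 genes tested. The 3 genes with an unadjusted p under 0.05 were all subunits of the MCM helicase, which unwinds DNA ahead of the replication fork; 15% of all genes had such a p. Limma-voom also called 0 members, and DESeq2 called 1, Mcm3, at a log2 fold change of 0.48 ± 0.15 (SE) and an adjusted p of 0.0311. The median log2 fold change of the set was 0.22, with 34 genes above 0 and 2 below, beside a median of -0.0096 over all genes. It was 0.13 without lactating jejunum library 6 and 0.34 without virgin female jejunum library 6. By role, the medians ran from 0.17 for the G1 cyclins and Cdk2 to 0.26 for the spindle checkpoint and mitotic exit genes.

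Mcm3 (chromosome 1, 20802968 to 20820312, GENCODE on GRCm38) had 19.5, 21.9, 29.8, 18.5 and 28.7 CPM in lactating jejunum, against 17.8, 12.9, 16.9, 18.6, 13.7 and 21.2 CPM in virgin female jejunum. Lactating libraries 2, 4 and 6 lay above every virgin female library, and the other 2 within their range. The log2 fold change was 0.47 ± 0.14 (SE), with an unadjusted p of 0.0029 and an adjusted p of 0.0957 by edgeR. Mcm4, another helicase subunit, had 20.7, 18.2, 24.0, 15.9 and 25.9 CPM in lactating jejunum, against 14.3 to 22.0 CPM (median 16.2) in virgin female jejunum, a log2 fold change of 0.30 ± 0.13 with an adjusted p of 0.263 by edgeR. Mcm5 had 16.4, 15.8, 28.8, 15.3 and 24.9 CPM in lactating jejunum, against 11.7 to 21.4 CPM (median 14.3) in virgin female jejunum, a log2 fold change of 0.41 ± 0.18 with an adjusted p of 0.304. In all 3 subunits lactating libraries 4 and 6 were the highest, and virgin female library 6 was the highest of its group.

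The other standard markers of proliferation gave smaller estimates in the jejunum. Mki67, the gene of the Ki-67 antigen used to stain cycling cells, had 106, 85.2, 111, 73.8 and 125 CPM in lactating jejunum, against 60.8 to 135 CPM (median 91.6) in virgin female jejunum. Its log2 fold change was 0.07, with a 95% interval from -0.27 to 0.41. Cdk1, the kinase that starts mitosis, had 16.9, 16.8, 23.6, 14.1 and 28.6 CPM in lactating jejunum, against 13.3 to 26.1 CPM (median 16.8) in virgin female jejunum, a log2 fold change of 0.17 ± 0.18. Ccnd1, the cyclin that carries growth signals into G1, spread widely, at 76.2, 48.8, 88.1, 33.9 and 113 CPM in lactating jejunum, against 44.4 to 72.4 CPM (median 61.7) in virgin female jejunum. Pcna was tight, at 61.2, 65.1, 65.2, 68.0 and 61.7 CPM in lactating jejunum, against 58.3 to 82.4 CPM (median 62.7) in virgin female jejunum, a log2 fold change of -0.04 ± 0.08. For these 4 genes the lactating and virgin female values overlapped. Over the set the 95% intervals reached from -0.36 for Ccnd2 to 0.90 for Plk1, so a doubling (a log2 of 1) lay outside the interval of all 36 genes.

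In the duodenum, 0 of 36 genes were called by edgeR, against 0.00662% of 15116 genes tested, which is 1 gene. DESeq2 and limma-voom called 0 members too, and 1 member, Ccnd2, had an unadjusted p under 0.05, as did 8.51% of all genes. The median log2 fold change was -0.11, with 2 genes above 0 and 34 below, beside 0.0093 over all genes. Ccnd2, a G1 cyclin, had 131, 131, 94.96, 94.6 and 160 CPM in lactating duodenum, against 239, 138, 121, 165, 140 and 140 CPM in virgin female duodenum. The groups overlapped, and virgin female library 1 stood well above the others. Its log2 fold change was -0.37 ± 0.16 (SE, adjusted p = 0.546 by edgeR) and -0.21 without that library. Mcm6, with the next smallest p, had 43.4, 57.3, 54.1, 46.7 and 66.9 CPM in lactating duodenum, against 50.6 to 74.6 CPM (median 62.1) in virgin female duodenum, a log2 fold change of -0.22 ± 0.11 with an adjusted p of 0.604.

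Lactating duodenum library 6 was the highest lactating library for each of the 5 standard markers followed here. Mki67 had 71.6, 139, 35.6, 61.0 and 159 CPM in lactating duodenum, against 69.9 to 157 CPM (median 111) in virgin female duodenum. Mcm5 had 19.0, 34.7, 12.5, 15.9 and 39.3 CPM in lactating duodenum, against 21.3 to 38.2 CPM (median 24.4) in virgin female duodenum. Cdk1 had 16.5, 25.1, 18.03, 14.6 and 37.4 CPM in lactating duodenum, against 20.2 to 34.9 CPM (median 23.0) in virgin female duodenum. In these 3 genes lactating libraries 2 and 6 were the highest lactating ones, and the other 3 lay at or below the virgin female median. Pcna had 65.2, 65.2, 47.7, 74.8 and 88.9 CPM in lactating duodenum, against 57.1 to 78.1 CPM (median 74.2) in virgin female duodenum, and Ccnd1 had 25.6, 36.5, 31.9, 22.7 and 51.7 CPM, against 31.8 to 49.9 CPM (median 33.2). Library 6 was again the highest lactating library, and the fitted log2 fold changes of these 5 genes lay between -0.28 and -0.08. The median log2 fold change of the set was -0.38 without library 6 and -0.0097 without lactating library 5, and no member was called in either case.

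Lymphoid marker genes were far higher in some duodenum libraries. The 12 germinal centre and B cell markers summed to 735 CPM in lactating duodenum library 2, to 542 CPM in virgin female library 4 and to 311 and 331 CPM in virgin male libraries 2 and 4, while all the others had 57.7 CPM or less. Germinal centre B cells divide too. Without these 4 libraries, a step added after the data were seen, the median log2 fold change of lactating over virgin female duodenum was -0.17, with 0 of 36 genes called by edgeR, against 0.0133% of 15053 genes. In the jejunum, where no library exceeded 54.5 CPM of these markers, the smooth muscle markers were higher in lactating than in virgin females for 8 of 8 genes, with 0 called and a median log2 fold change of 0.27, and the fibroblast markers for 7 of 8, with 0 called and a median of 0.34. Among all genes 47.7% lay above 0 in the jejunum. The part of smooth muscle and fibroblasts in the jejunum estimates was not tested.

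In the ileum, 0 of 36 genes were called by edgeR, DESeq2 or limma-voom, against 2.16% of 15106 genes tested by edgeR. The 2 members with an unadjusted p under 0.05, as 17.9% of all genes had, were Ube2c and Ccnd2. Ube2c, the ubiquitin-conjugating enzyme that works with the anaphase-promoting complex at mitotic exit, had 53.6 to 68.9 CPM (median 60.9) in lactating ileum, against 36.5 to 61.1 CPM (median 51.9) in virgin female ileum, a log2 fold change of 0.25 ± 0.11 (adjusted p = 0.249 by edgeR). Ccnd2 had 202 to 290 CPM (median 253) in lactating ileum, against 182 to 243 CPM (median 219) in virgin female ileum, a log2 fold change of 0.20 ± 0.09 (adjusted p = 0.255). The groups overlapped for both genes. The median of the set was 0.11, with 35 genes above 0 and 1 below, beside -0.018 over all genes. When libraries were scaled by their totals alone, the median was 0.012, with 23 above 0 and 13 below, and no member had an unadjusted p under 0.05. Without virgin female ileum library 6 the median was 0.035.

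For most of the 36 genes the estimate had its smallest standard error in ileum. Mki67 had 111 to 137 CPM (median 132) in lactating ileum, against 92.2 to 137 CPM (median 122) in virgin female ileum. Mcm5 had 27.7 to 37.2 CPM (median 33.7) in lactating ileum, against 25.2 to 37.3 CPM (median 30.0) in virgin female ileum. Cdk1 had 27.8 to 36.1 CPM (median 33.1) in lactating ileum, against 21.2 to 34.8 CPM (median 29.3) in virgin female ileum. In these 3 genes the lactating median was the higher one, but most libraries of both groups fell in a shared range. Pcna had 57.2 to 71.9 CPM (median 68.7) in lactating ileum, against 59.9 to 72.9 CPM (median 63.9) in virgin female ileum, and Ccnd1 had 105 to 164 CPM (median 146), against 96.1 to 154 CPM (median 126). The log2 fold changes of these 5 genes were 0.08 for Mki67, 0.08 for Mcm5, 0.16 for Cdk1, 0.01 for Pcna and 0.11 for Ccnd1, with standard errors of 0.09 to 0.17. Under scaling by library totals those of Mki67, Mcm5 and Pcna were below 0. Every interval of the 36 genes in the ileum ended below 1.5-fold, the highest bound being a log2 of 0.51 for Ccnb1. The villus enterocyte markers lay above 0 in 12 of 12 genes in this comparison, with Ada and Fabp2 called, a median log2 fold change of 0.61 and sums of 29457 to 34857 CPM in lactating ileum, against 14825 to 29367 CPM in virgin female ileum. Among all genes 45.6% lay above 0 and 2.16% were called. The part of enterocytes in the ileum estimates was not tested.

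**Figure D2:**
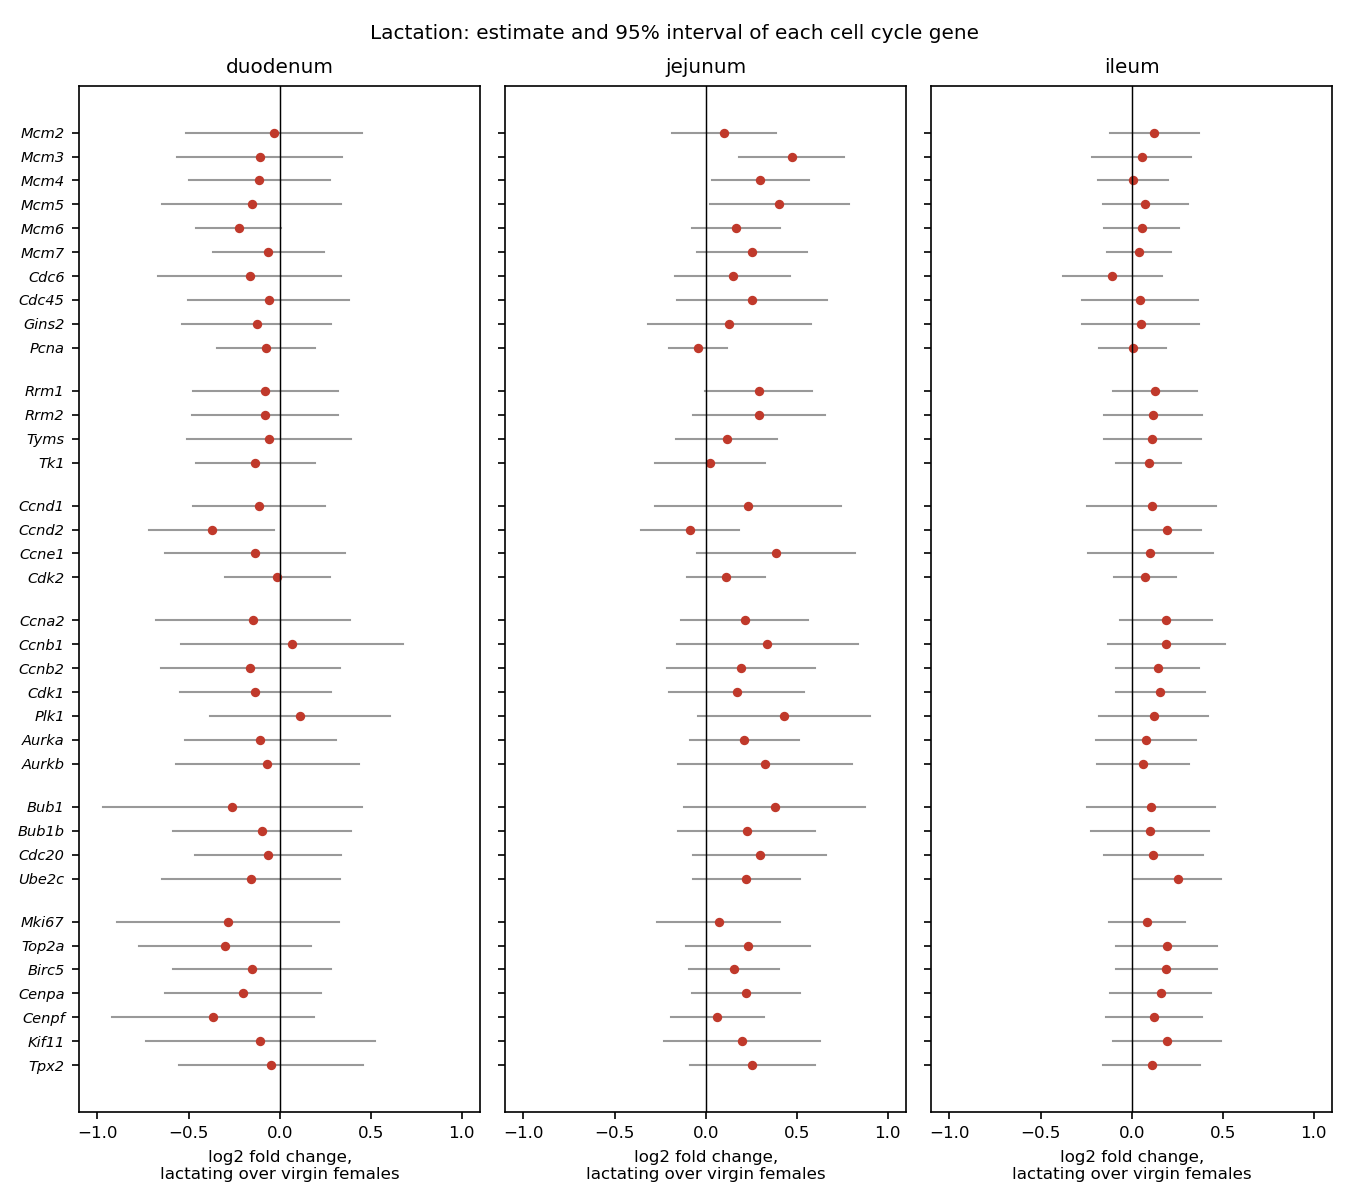
Log2 fold change of lactating over virgin females (horizontal axis) for each of the 36 genes (rows, grouped by role) in duodenum, jejunum and ileum. Points are edgeR estimates and lines their 95% intervals; for most genes the interval is widest in duodenum and narrowest in ileum, with exceptions such as Ccnd1, widest in jejunum, and Pcna, narrowest in jejunum, and no gene was called in any section.

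The difference of the lactation effect between sections was tested as a contrast over the female libraries. No member was called by edgeR, DESeq2 or limma-voom in ileum minus jejunum (0.0256% of 15637 genes called by edgeR), in ileum minus duodenum (0.0703%) or in jejunum minus duodenum (0%). At an unadjusted p under 0.05 there were 0 members, then Ccnd2 alone, and then Mcm3 and Mcm6, beside 7.58%, 5.41% and 3.79% of all genes in the same order of contrasts. The median differences on the log2 scale were -0.12 for ileum minus jejunum, 0.20 for ileum minus duodenum and 0.34 for jejunum minus duodenum. In the last, all 36 estimates were above 0, as they were in ileum minus duodenum. These contrasts share libraries, and their medians depended on single ones. That of ileum minus duodenum ran from 0.11 without lactating duodenum library 5 to 0.46 without library 6, and that of jejunum minus duodenum from 0.24 to 0.61 without the same libraries. That of ileum minus jejunum ran from -0.23 without virgin female jejunum library 6 to -0.00064 without lactating jejunum library 6.

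Other cell cycle genes, 62 in a list that overlaps none of the 36, were tested in the same way in lactation, and 0 were called in any section by edgeR, with 2 at an unadjusted p under 0.05 in duodenum, 9 in jejunum and 5 in ileum, no larger a share than the 8.51%, 15% and 17.9% of all genes. E2f3, a transcription factor that switches on S phase genes, had 28.1 to 33.3 CPM (median 31.3) in lactating ileum, against 19.6 to 26.8 CPM (median 24.1) in virgin female ileum. The groups did not overlap, and the log2 fold change was 0.33 ± 0.09 (adjusted p = 0.0544 by edgeR). In duodenum its log2 fold change was 0.46 ± 0.15 (adjusted p = 0.356). Ccne2, an E-type cyclin, had 8.74 to 12.5 CPM (median 9.53) in lactating jejunum, against 10.3 to 20.5 CPM (median 14.8) in virgin female jejunum, a log2 fold change of -0.56 ± 0.15 (adjusted p = 0.077). Its estimate in duodenum was -0.46 ± 0.21 (adjusted p = 0.575). E2f7, a repressor among the E2F factors, had a log2 fold change of 0.71 ± 0.24 in jejunum (adjusted p = 0.155), and Cenpe, a kinetochore motor, one of 0.31 ± 0.13 in ileum (adjusted p = 0.214).

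The level of the genes differed between sections. In virgin females 27 of 36 genes were higher in ileum than in jejunum and none lower (23.9% of 15154 genes were called higher and 24.1% lower). The median log2 fold change was 0.56, beside 0.059 over all genes. Called genes were 8 of 10 replication genes, 1 of 4 enzymes of nucleotide supply, 3 of 4 G1 genes, 7 of 7 mitotic cyclins and kinases, 3 of 4 checkpoint and mitotic exit genes and 5 of 7 chromosome and spindle genes. Under scaling by library totals all genes shifted up by 0.35 in this step, and 36 of 36 members were called higher, with a median of 0.92. In 6 genes (Mcm3, Mcm4, Mcm5, Ccnd1, Ccne1 and Cdk2) every ileum library exceeded every jejunum library, against 25.1% of all genes that separated in either direction. The ileum libraries are listed after all those of duodenum and jejunum. Their share of stranded gene reads in the sense column was 98.51% or more in virgin females, against 98.42% or less in virgin female jejunum. The labels do not say whether the ileum was prepared separately. A part of preparation in the differences between ileum and the other sections was not tested.

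Ccnb1, the B-type cyclin that activates Cdk1 in mitosis, had 18.8, 14.2, 17.5, 16.4, 17.6 and 10.9 CPM in virgin female ileum, against 6.65, 4.76, 8.21, 7.62, 5.93 and 11.7 CPM in virgin female jejunum. Only ileum library 6 fell below a jejunum library, and the log2 fold change was 1.09 ± 0.19 (adjusted p = 0.000103 by edgeR). The gene has a pseudogene in the annotation, so reads that match both could be missing from its count. Mcm5 had 32.2, 29.8, 30.2, 28.3, 37.3 and 25.2 CPM in virgin female ileum, against 12.1, 11.8, 16.5, 16.9, 11.7 and 21.4 CPM in virgin female jejunum, a log2 fold change of 1.02 ± 0.16 (adjusted p = 3.47e-05). Ccne1, the cyclin that opens S phase with Cdk2, was scarce, at 4.72 to 6.39 CPM (median 5.37) in virgin female ileum, against 2.14 to 3.59 CPM (median 2.58) in virgin female jejunum, a log2 fold change of 1.01 ± 0.17 (adjusted p = 6.27e-05). The groups of both genes were apart.

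The jejunum was also below the duodenum for many of these genes. In virgin females 18 of 36 were lower in jejunum than in duodenum and 2 higher (20% of all genes were called lower and 17.2% higher), with a median log2 fold change of -0.46, beside -0.051 over all genes. Called lower were 6 of 10 replication genes, 2 of 4 enzymes of nucleotide supply, 5 of 7 mitotic cyclins and kinases, 2 of 4 checkpoint genes and 3 of 7 chromosome and spindle genes. Ccnd1 and Ccnd2 were the 2 that were higher. Under scaling by library totals all genes shifted by -0.22, and 30 members were called lower and 1 higher. Mcm6, which fell, had 28.8 to 50.03 CPM (median 35.9) in virgin female jejunum, against 50.6 to 74.6 CPM (median 62.1) in virgin female duodenum, a log2 fold change of -0.78 ± 0.12 (adjusted p = 8.97e-05) with no overlap. Mcm5 had a log2 fold change of -0.83 ± 0.16 (adjusted p = 0.00051), with the values in virgin female duodenum and jejunum given above overlapping by 1 jejunum library. Groups did not overlap for Mcm6, Rrm2 and Cenpa, 3 of 36 genes, against 16.7% of all genes.

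**Figure D3:**
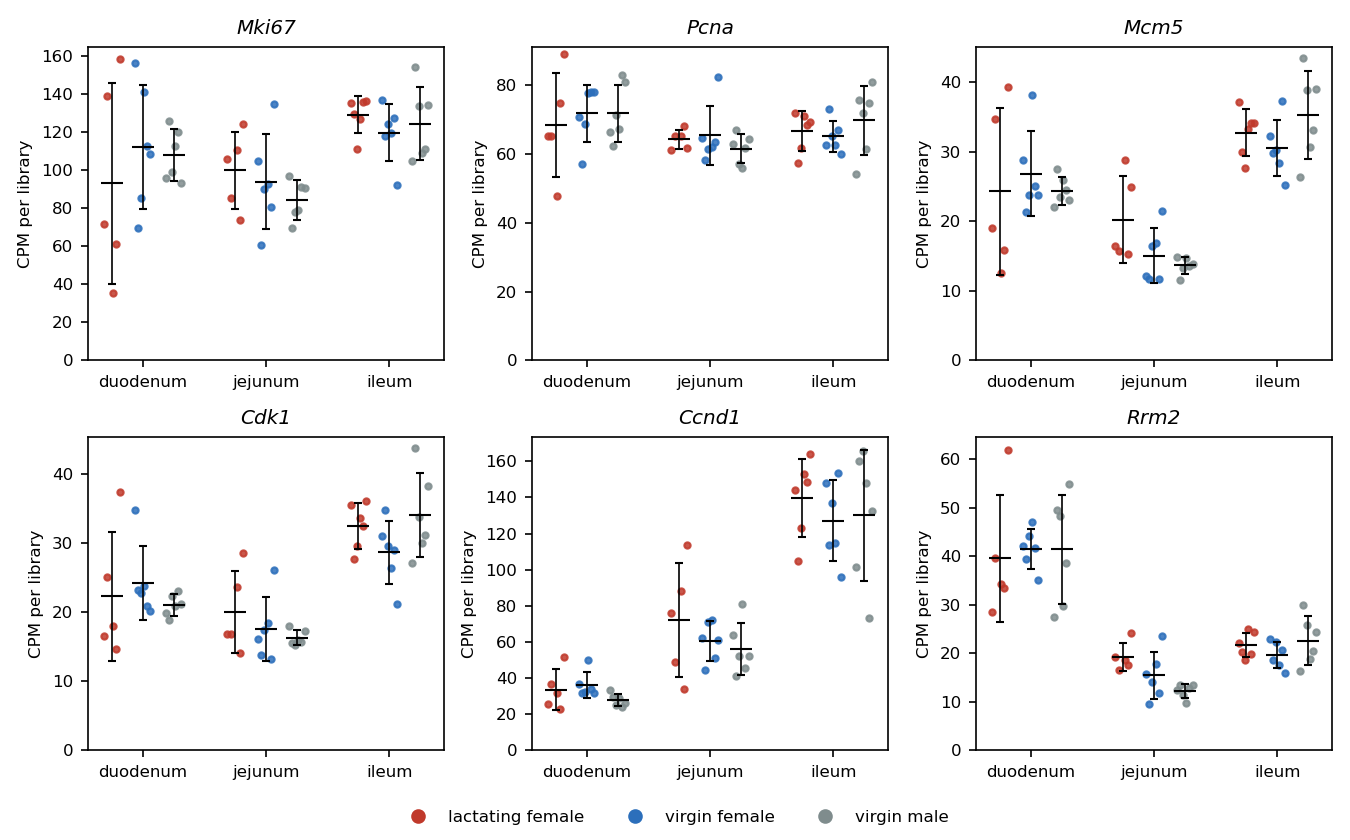
CPM of Mki67, Pcna, Mcm5, Cdk1, Ccnd1 and Rrm2 in every library, by section (horizontal axis) and group (colour); the horizontal mark is the mean and the bar 1 SD. Mcm5 and Cdk1 are lowest in jejunum, Ccnd1 climbs from duodenum to ileum, Rrm2 is highest in duodenum and Pcna is nearly level.

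Some members had a pattern of their own along the gut. Ccnd1 was higher in each further section: it had 148, 114, 137, 115, 154 and 96.1 CPM in virgin female ileum, 62.4, 44.4, 71.2, 72.4, 51.2 and 61.0 CPM in virgin female jejunum, and 37.0, 31.8, 32.5, 49.9, 33.9 and 32.0 CPM in virgin female duodenum. The ileum values lay above all others, while jejunum and duodenum overlapped by 1 library on each side. The log2 fold change was 1.08 ± 0.14 for ileum over jejunum, 0.74 ± 0.14 for jejunum over duodenum and 1.82 ± 0.15 for ileum over duodenum (adjusted p = 4.18e-09 by edgeR). Rrm2, the regulated subunit of ribonucleotide reductase, which makes deoxyribonucleotides, was highest in duodenum: it had 23.0, 18.6, 22.3, 17.6, 20.7 and 15.9 CPM in virgin female ileum, 15.8, 9.61, 14.1, 17.9, 11.9 and 23.5 CPM in virgin female jejunum, and 42.1, 39.3, 44.2, 47.1, 41.7 and 35.1 CPM in virgin female duodenum. The duodenum values lay above all others. The log2 fold change was -1.43 ± 0.16 for jejunum over duodenum (adjusted p = 2.2e-06) and -1.08 ± 0.16 for ileum over duodenum (adjusted p = 1.47e-05), and 0.35 ± 0.16 for ileum over jejunum (adjusted p = 0.0775). In virgin males Rrm2 was called higher in ileum than in jejunum, at 0.90 ± 0.17 (adjusted p = 0.000123). Its partner subunit Rrm1 had, in virgin females, 0.55 ± 0.14 for ileum over jejunum (adjusted p = 0.00278) and 0.07 ± 0.13 for ileum over duodenum.

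In virgin females no step was called for Pcna or for Tk1, the thymidine kinase of the salvage pathway. Pcna had 59.9 to 72.9 CPM (median 63.9) in virgin female ileum, 58.3 to 82.4 CPM (median 62.7) in virgin female jejunum, and 57.1 to 78.1 CPM (median 74.2) in virgin female duodenum, so that all sections overlapped. Tk1 had a log2 fold change of 0.01 ± 0.13 for ileum over jejunum and -0.16 ± 0.13 for jejunum over duodenum. Under scaling by library totals both were called higher in ileum than in jejunum, with the shift of all genes given above. Mki67 in virgin females, at 0.35 ± 0.18 for ileum over jejunum (adjusted p = 0.119) and -0.26 ± 0.18 for jejunum over duodenum (adjusted p = 0.29), did not pass in either step. In virgin males both genes were called higher in ileum than in jejunum, Tk1 at 0.33 ± 0.08 (adjusted p = 0.00157) and Mki67 at 0.58 ± 0.10 (adjusted p = 7.88e-05), and Mki67 was called lower in jejunum than in duodenum, at -0.36 ± 0.10 (adjusted p = 0.00742). Pcna has 2 annotated pseudogenes, and Tyms and Ccnb2 have 1 each, so their counts carry the same limit as Ccnb1. Pseudogenes were searched by gene name only, so those under other names were missed.

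By the median, ileum and duodenum were the closest pair of sections in virgin females only. In virgin males and lactating females the closest pair was jejunum and duodenum, with the medians given below. In virgin females 8 of 36 genes were higher in ileum than in duodenum and 2 lower (21.1% of all genes were called higher and 26% lower), with a median log2 fold change of 0.15, beside -0.012 over all genes. The share of members called higher was near that of all genes, and the share called lower was smaller than that of all genes. All 4 G1 genes were called higher, as were 3 of 7 mitotic cyclins and kinases and 1 of 10 replication genes. Ccna2, the cyclin of S phase and G2, had 51.7 to 77.8 CPM (median 67.0) in virgin female ileum, against 31.7 to 56.8 CPM (median 41.6) in virgin female duodenum, a log2 fold change of 0.62 ± 0.17 (adjusted p = 0.00547). Plk1, a kinase of mitotic entry and spindle assembly, had 17.9 to 29.7 CPM (median 24.8) in virgin female ileum, against 11.2 to 18.9 CPM (median 16.6) in virgin female duodenum, a log2 fold change of 0.59 ± 0.20 (adjusted p = 0.0229). For both genes the ranges overlapped. Plk1 lost its call without virgin female duodenum library 2, ileum library 1 or ileum library 5, with adjusted p-values of 0.0571, 0.0565 and 0.0538 by edgeR. Rrm2 and Mcm6 were the 2 that were lower, and without duodenum library 2 the counts were 5 higher and 1 lower.

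Virgin males, a separate set of libraries, were tested in the same steps. In ileum over jejunum 35 of 36 genes were called higher and none lower (34% and 30.2% of 15112 genes), with a median log2 fold change of 0.86, and only Pcna was not called. All 27 genes called in virgin females were among them, which is 77.1% of the male calls. In jejunum over duodenum 23 were lower and 3 higher (26% and 24.1%), with a median of -0.35, and 19 genes were called in the same direction in both sexes, 95% of the female calls and 73.1% of the male calls. In ileum over duodenum 27 were higher and 1, Rrm2, lower (32.7% and 32.5%), with a median of 0.51. In 31 genes every male ileum library exceeded every male jejunum library, against 43.4% of all genes that separated either way. Among them was Cdk1, at 27.1 to 43.8 CPM (median 32.5) in virgin male ileum, against 15.3 to 18.03 CPM (median 15.8) in virgin male jejunum, a log2 fold change of 1.08 ± 0.09 (adjusted p = 8.44e-09).

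In lactating females fewer genes passed. In ileum over jejunum 11 of 36 were called higher and none lower (18.4% and 18.8% of 15080 genes), with all 36 estimates above 0 and a median log2 fold change of 0.43. The 11 were Ccna2, Ccnb1, Ccnd1, Ccne1, Cdc20, Cdk1, Cdk2, Gins2, Mcm4, Mcm5 and Mcm6, and each was also called higher in virgin females and virgin males. In jejunum over duodenum 2 were called higher and 2 lower (13% and 14.4%), Ccnd1 and Ccnd2 against Mcm6 and Rrm2, with a median of -0.058. These 4 were called in the same direction in both groups of virgins. In ileum over duodenum 10 were called higher and 1, Rrm2, lower (25.7% and 27.6%), with a median of 0.47. Here too the share of members called higher was near that of all genes. These counts depended on single libraries. In ileum over duodenum 29 genes were called without lactating duodenum library 6, against 6 without each of duodenum libraries 1, 4 and 5 and 7 without each of ileum libraries 1 and 6. With each library left out in turn, 7436 to 8079 of all genes were called in either direction. In ileum over jejunum 5 were called without each of lactating jejunum libraries 1 and 5, and 7 without jejunum library 2 or ileum library 6. In that step 4756 to 5412 of all genes were called with each library left out in turn. The jejunum over duodenum median lay above 0 without duodenum library 2 (0.071) or 6 (0.23) or jejunum library 5 (0.038). The smaller counts in lactating females are not shown to differ from those in virgin females, since the contrasts of the lactation effect between sections called no member.

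**Figure D4:**
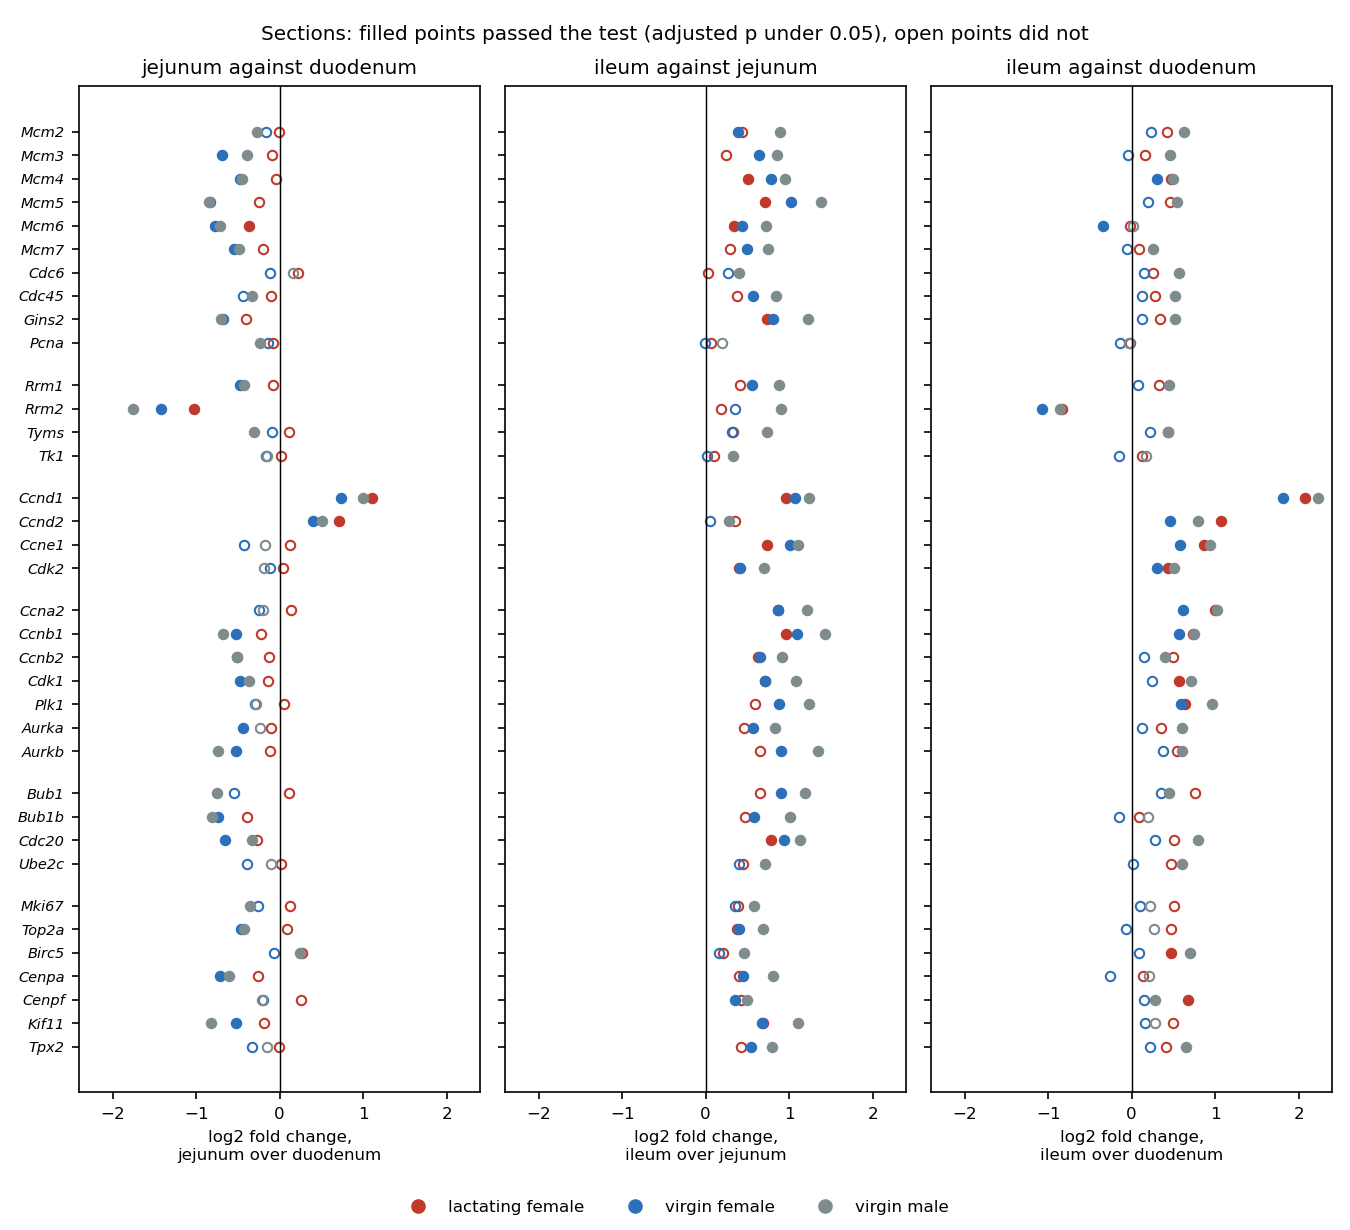
Log2 fold change between sections (horizontal axis) for each of the 36 genes (rows, grouped by role), with ileum over jejunum in the middle, jejunum over duodenum on the left and ileum over duodenum on the right. Colours are lactating females, virgin females and virgin males; filled points passed an adjusted p under 0.05 and open points did not. Nearly all points lie right of 0 in the middle plot, and Ccnd1 and Rrm2 stand out at the right and left.

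The other cell cycle genes were counted in the same way in virgin females. Of 62 genes, 36 were higher in ileum than in jejunum and 4 lower, 20 were lower in jejunum than in duodenum and 3 higher, and 13 were higher in ileum than in duodenum and 4 lower. Of all genes, 23.9% and 24.1% were called higher and lower in the first comparison, 20% lower and 17.2% higher in the second, and 21.1% and 26% higher and lower in the third, where the count of higher genes was near that background. Orc1, the largest subunit of the origin recognition complex, had 1.84 to 3.76 CPM (median 3.16) in virgin female ileum, against 0.534 to 2.00 CPM (median 1.08) in virgin female jejunum, a log2 fold change of 1.41 ± 0.31 (adjusted p = 0.00108), with 1 ileum library inside the jejunum range. Foxm1, the transcription factor of G2 and mitotic genes, had one of 0.92 ± 0.20 (adjusted p = 0.0011), and E2f7 one of 1.16 ± 0.28 (adjusted p = 0.00226).

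In the step from duodenum to jejunum, Pola1, the catalytic subunit of the primase-coupled polymerase, had a log2 fold change of -0.89 ± 0.15 (adjusted p = 0.000208) in virgin females, and Dnmt1, the methyltransferase that copies DNA methylation at the fork, one of -0.77 ± 0.16 (adjusted p = 0.000972). Ccne2 and E2f3 were higher in jejunum, by 1.08 ± 0.19 (adjusted p = 0.000283) and 0.97 ± 0.13 (adjusted p = 2.16e-05) on the log2 scale. In ileum over duodenum, Orc1 was higher by 1.25 ± 0.30 (adjusted p = 0.00233) and Cks2, a small partner of Cdk1, by 0.79 ± 0.19 (adjusted p = 0.00228). Gmnn, the inhibitor of origin licensing, had a log2 fold change of -0.99 ± 0.15 (adjusted p = 2.86e-05) in the same comparison.

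Marker genes of other cell types differed along the gut as well. In virgin female ileum over jejunum, 11 of 12 villus enterocyte markers fell, and they summed to 14825 to 29367 CPM in ileum, against 68554 to 96591 CPM in jejunum. In the same step 8 of 8 fibroblast markers rose, with sums of 1013 to 1300.4 CPM in ileum, against 259 to 855 CPM in jejunum, and 5 of 8 smooth muscle markers rose. Of 10 crypt stem cell markers 3 rose (Lgr5, Ascl2 and Axin2) and 1, Rnf43, fell, against 23.9% and 24.1% of all genes called higher and lower in this step. Lgr5, the receptor that marks crypt base stem cells, had a log2 fold change of 1.20 ± 0.16 (adjusted p = 6.1e-06). This marker was picked after its value was seen. In jejunum over duodenum 9 of 10 T cell markers and 6 of the 7 tested B cell markers fell, 6 of 12 enterocyte markers rose and 1 fell, and 6 of 8 Paneth cell markers rose, against 20% of all genes called lower and 17.2% higher. Without the libraries rich in B cell markers, 15 members were called lower in this step and 1 higher, with a median of -0.41. In the same fit 32.1% of all genes were called in either direction. The part of these cell types in the section differences was not tested.

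Inhibitors of the cell cycle were called about as often as all genes in ileum over jejunum. Of 15 genes in that list, 3 were called higher in virgin female ileum than in jejunum (Cdkn2a, Cdkn2b and Ccng1) and 4 lower (Cdkn1a, Ccng2, Btg1 and Btg2), against 23.9% and 24.1% of all genes. Btg2, an antiproliferative transcript, had a log2 fold change of -1.13 ± 0.14 (adjusted p = 1.71e-06), and Cdkn1a, the p21 inhibitor, one of -0.38 ± 0.11 (adjusted p = 0.0112). Btg2 and Cdkn1a were picked after their values were seen, and the 3 genes called higher went the other way. In jejunum over duodenum 6 were called higher and 1 lower, against 17.2% and 20% of all genes, among them Cdkn1a at 0.42 ± 0.12 (adjusted p = 0.0073) and Btg2 at 0.94 ± 0.14 (adjusted p = 3.52e-05). In lactation none of the 14 tested in duodenum and jejunum or the 15 in ileum was called by edgeR. At an unadjusted p under 0.05 there were 1, 3 and 4 in duodenum, jejunum and ileum, beside 8.51%, 15% and 17.9% of all genes.

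Virgin females were set against virgin males in each section. No member was called by edgeR, DESeq2 or limma-voom, against 0.0331% of all genes called by edgeR in duodenum, 0.0676% in jejunum and 0.0993% in ileum, and none had groups without overlap, against 0.37% of all genes that separated in duodenum, 0.582% in jejunum and 0.417% in ileum. At an unadjusted p under 0.05 there were 3 members in duodenum (Ccnd1, Birc5 and Mcm6, all higher in females), 1 in jejunum (Mcm2, higher in females) and 2 in ileum (Plk1 and Tk1, lower in females), beside 8.07%, 7.2% and 9.74% of all genes in those sections. The median log2 fold change of females over males was 0.17 in duodenum, 0.13 in jejunum and -0.17 in ileum. Mki67 had 69.9 to 157 CPM (median 111) in virgin female duodenum, against 93.3 to 126 CPM (median 106) in virgin male duodenum, and the female libraries lay on both sides of the male ones. Plk1 had 17.9 to 29.7 CPM (median 24.8) in virgin female ileum, against 23.6 to 42.7 CPM (median 29.1) in virgin male ileum, a log2 fold change of -0.36 ± 0.14 (adjusted p = 0.416).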

How the data were processed

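Polyadenylated RNA of 54 tissue samples (3 gut sections, 3 kinds of animal, 6 libraries each) was sequenced with a directional kit. The authors deposited raw counts of reads per gene, and the column for the sense strand of that kit was used, which holds 97.9 to 98.6% of stranded gene reads. Per the submitters' processing notes, FastQC 0.11.5, STAR 2.7.7a, DESeq2 1.34.0 and GRCm38 were used; the annotation is not given in the sources used here. Reads assigned to no gene, 20.0 to 31.7% of each library, were left out of library sizes.

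Each comparison was fitted with edgeR 4.0.16 (R 4.3.3) on the deposited counts: genes were kept by filterByExpr (minimum count 10, minimum total 15), library sizes adjusted by TMM normalization, a quasi-likelihood F test run over all genes and p-values adjusted by the Benjamini-Hochberg method, with a call under 0.05. Lactation and sex were tested within each section, sections within each kind of animal, and the difference of lactation effects over the female libraries. The alternatives were DESeq2 1.42.0, limma-voom (limma 3.58.1), library totals alone, another filter, a replicate block, other choices of libraries, the libraries as labelled and leaving out each library. The method was also run on simulated counts. Each gene was drawn independently there, so that run says nothing about genes that vary together between libraries. Libraries of 1 group were compared and none were identical. In no comparison did all pairs of libraries with the same number have deviations correlated above 0.1, so the numbers were not taken as pairs. This check cannot exclude that some numbers share an animal or a preparation. Results with the number as a block are given below.

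Genes were named by rule: 5 standard markers (Mki67, Pcna, Mcm5, Ccnd1 and Cdk1) in lactation, and in each lactation or virgin female section comparison up to 4 called members, and up to 4 other called cell cycle genes, with the largest log2 fold change in size, or the 2 with the smallest p where none was called. Rrm1, Tk1, Lgr5, Btg2, Cdkn1a, Pcna and Mki67 between sections, Cdk1 in males, and Mki67 and Plk1 between the sexes were chosen after their values were seen. The 36 genes and all other lists were chosen with earlier results of these data known. Merged exon lengths and positions came from GENCODE, and promoters from RefSeq, both on GRCm38. Of the other cell cycle genes that the naming rule picks, 1 is not reported here.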

Additional observations from a re-analysis of the deposited data

Results flagged for a closer look

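Among 333 groups of 5 or 6 values (1 gene, or the sum of the 36 genes, in 1 group of libraries), 22 held a library far from the others by Dixon's test, and chance gives about 1 in 20. They fell in 10 libraries, and values below are CPM, with the range of the group's other libraries after each. Virgin female duodenum library 1 held 6, all high. It had 239 of Ccnd2 (121 to 165), 34.9 of Cdk1 (20.2 to 23.8), 27.7 of Aurka (14.5 to 19.3), 81.3 of Ube2c (35.5 to 47.7), 53.2 of Birc5 (24.7 to 33.2) and 38.0 of Cenpa (22.6 to 27.0).

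Virgin male jejunum library 1 held 4 high values, with 40.4 of Ccna2 (30.8 to 34.2), 10.4 of Ccnb1 (6.38 to 7.41), 22.6 of Cdc20 (16.6 to 18.4) and 35.4 of Birc5 (25.6 to 29.0). Virgin female jejunum library 6 held 3, with 5.13 of Gins2 (2.24 to 3.30), 82.4 of Pcna (58.3 to 64.6) and 39.6 of Rrm1 (21.5 to 28.2). Lactating ileum library 3 held 2 low values, with 40.6 of Mcm6 (52.1 to 57.5) and 111 of Mki67 (127 to 137). Virgin male duodenum library 3 held 2 high values, with 44.8 of Ube2c (34.4 to 38.1) and 28.5 of Birc5 (21.9 to 24.2).

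The other 5 libraries held 1 each. Lactating duodenum library 6 had 28.7 of Aurkb (7.90 to 13.8), virgin female duodenum library 4 had 49.9 of Ccnd1 (31.8 to 37.0) and virgin female ileum library 5 had 25.2 of Cdk2 (19.4 to 20.9). Virgin male ileum library 2 had 32.7 of Bub1b (17.9 to 23.4), and virgin male jejunum library 5 had 12.5 of Cdk2 (14.8 to 16.0), a low value.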

How the results depend on the processing

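No lactation, sex or lactation-difference comparison called a member under any alternative, except DESeq2 in jejunum, which called 1. Other counts of called members that moved by over 1.5 times were as follows. Jejunum over duodenum gave 31 under library totals in virgin females (20 as reported) and 16 with all 52 libraries in 1 fit in virgin males (26 as reported). In lactating females it gave 1 with the libraries as labelled (4 as reported). Lactating ileum over jejunum, 11 as reported, gave 22 under library totals, 0 as labelled, 18 in the 52-library fit and 27 with the groups compared alone. Lactating ileum over duodenum, also 11, gave 22 by limma-voom, 3 as labelled and 18 in the 52-library fit. Leaving out each library in turn gave 6 to 10 calls in virgin female ileum over duodenum, 5 to 15 in lactating ileum over jejunum and 6 to 29 in lactating ileum over duodenum. Among all genes the same fits called 6445 to 7643, 4756 to 5412 and 7436 to 8079. With the replicate number as a block, lactation called 0 members in each section, with median log2 fold changes of -0.17 in duodenum, 0.22 in jejunum and 0.11 in ileum, and the block gave 19 calls in lactating ileum over jejunum and 21 in lactating ileum over duodenum. With the libraries as labelled, the lactation median was -0.34 in duodenum (-0.11 as reported) and 0.33 in jejunum (0.22 as reported). By edgeR, 0 members in duodenum and 17 in jejunum then had an unadjusted p under 0.05, against 1 and 3 as reported. The share of all genes at that p is not given for these fits. Some small estimates changed sign. As labelled, Ccnd1 was 0.96 in lactating duodenum and Pcna 0.027 in lactating jejunum, and the lactating jejunum over duodenum median was 0.21. Without the libraries rich in B cell markers that median was 0.071. In lactating ileum under library totals Mki67 was -0.010, Pcna -0.079 and Mcm5 -0.017, and Pcna was -0.00047 under a filter on CPM. Leaving out each library gave log2 fold changes in duodenum of -0.20 to 0.028 for Pcna, -0.41 to 0.011 for Mcm5, -0.33 to 0.0074 for Ccnd1 and -0.41 to 0.0097 for Cdk1. In jejunum it gave -0.023 to 0.20 for Mki67 and -0.067 to 0.034 for Pcna, in ileum -0.023 to 0.047 for Pcna, and -0.16 to 0.23 for the lactating jejunum over duodenum median. The cause of these changes was not tested. The lowest count of any of the 36 genes was 37 reads. For most genes, though not for Ccnd1, Gins2 and Mcm6, the lactation interval was widest in duodenum.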
